A study of Homo sapiens with 2 samples.

Results

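The genes for 9 histone variants were examined in WT human embryonic stem cells and in cells labelled as homozygous KO of the zinc finger protein gene ZNF263. The variant genes are MACROH2A1 and MACROH2A2, H2AZ1 and H2AZ2, H2AX, H2AJ, H3-3A and H3-3B, and the linker histone gene H1-10. They were taken by symbol from the 33592 gene symbols listed in either library, and all 9 were detected in both libraries. The set was drawn up because MACROH2A2 was already known to differ between these libraries, so its difference is given as a description and supports nothing on its own.

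The tested cells were H1 (WA01) human embryonic stem cells, an established line, with the labelled genotype ZNF263 homozygous KO, made with Cas9 and titled 1-10 KO. They were set against WT H1 cells. There was 1 library per genotype, the labels do not say whether the KO line is 1 clone, and no test of genotype could be made. Live-stained suspensions were captured in microwells with barcoded beads, and molecules with a poly(A) tail were copied and counted by unique molecular identifiers (UMIs), each standing for 1 captured molecule.

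Nucleosomes package DNA around an octamer of core histones. The replication-coupled histones are made in S phase from clustered genes whose mRNAs lack a poly(A) tail, whereas most variants are made from separate genes with polyadenylated mRNAs outside S phase too, and several are put into chromatin by their own chaperones. H2AX is an exception, with both a polyadenylated mRNA and one that ends in a stem loop, so that counts of polyadenylated molecules cover only part of its output. MacroH2A carries a large extra domain and is known for marking silent chromatin and for resisting reprogramming to pluripotency. H2A.Z and H3.3 are found at promoters and enhancers, H2AX is phosphorylated around DNA breaks, and linker H1 binds where DNA enters and leaves the nucleosome.

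The sequence upstream of MACROH2A2 is shown because this gene carried the largest difference of the set. It is the RefSeq (GRCh38.p14) sequence of the 250 bases before the gene's start on the plus strand, chr10:70052596-70052845, and capitals mark overlapping copies of CCTCCTCC, the reverse complement of GGAGGAGG.

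MACROH2A2 upstream: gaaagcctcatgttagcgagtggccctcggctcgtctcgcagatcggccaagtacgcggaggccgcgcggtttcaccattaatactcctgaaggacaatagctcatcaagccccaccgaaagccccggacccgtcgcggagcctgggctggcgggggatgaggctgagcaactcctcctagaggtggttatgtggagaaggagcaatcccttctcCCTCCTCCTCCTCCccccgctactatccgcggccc

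The letters GGAGGAGG were chosen for the search after this sequence had been seen, because ZNF263 is known for binding purine-rich repeats of this kind. The run lies at -35 to -22 from the start and holds 3 overlapping copies. On either strand, GGAGGAGG was present in 10.9% of all 35116 RefSeq promoter windows of 300 bases (250 before to 50 after a start). Among the other members it was found in windows of H2AX, H2AJ and H3-3A and in none of MACROH2A1, H2AZ1, H2AZ2, H3-3B or H1-10. A match of letters is not a binding site, and no binding was measured here.

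The 2 H3.3 genes encode the same protein in different codons, and a pseudogene, H3P6, copies the coding sequence of H3-3A. Their first 72 coding bases are shown because they bear on how far H3-3A could be counted by itself. They are from GENCODE 29 transcripts (GRCh38), and capitals mark bases that differ from H3-3A.

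H3-3A: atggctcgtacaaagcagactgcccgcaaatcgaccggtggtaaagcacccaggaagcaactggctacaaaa
H3-3B: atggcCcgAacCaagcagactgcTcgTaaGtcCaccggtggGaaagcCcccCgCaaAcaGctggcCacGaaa
H3P6: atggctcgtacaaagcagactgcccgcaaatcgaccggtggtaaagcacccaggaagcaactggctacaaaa

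Over the whole coding sequence of 411 bases, H3-3B differed from H3-3A at 88 bases (78.6% identity), 15 of them in the stretch shown. H3P6 differed at 0 of 411 bases, so reads from the coding part of H3-3A and H3P6 cannot be told apart by sequence. The H3P6 entry held only those 411 bases, so the sequence between the coding part and the poly(A) tail was not compared.

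Barcodes were treated as cells where they held 1000 UMIs or more from 500 genes or more, with mitochondrially encoded genes giving no more than 20% of the UMIs. This left 2286 KO cells with a median of 1289.5 UMIs and 2935 WT cells with a median of 1328 UMIs. A further 50551 KO and 56837 WT barcodes held from 250 to under 1000 UMIs and served as a second, shallower sample of the same libraries, not as a replicate. ZNF263 itself had 27 UMIs in KO cells and 83 UMIs in WT cells, 7.57 and 17.8 CPM, the UMIs of a gene per 1000000 UMIs of the barcodes summed, so its transcript was lower but present in the library labelled KO. Of 15 pluripotency genes, all averaged 5 CPM or more. The core factor POU5F1 was at 77.1 CPM in KO and 50.1 CPM in WT, SOX2 at 292 and 321 CPM in KO and WT, and the RNA-binding protein LIN28A at 757 and 801 CPM. Of the cell barcode sequences, 20 passed as cells in both libraries.

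In KO cells, 2 of the 9 members were at least 1.5-fold lower than in WT cells, MACROH2A2 and H1-10, and none was at least 1.5-fold higher. Among all 5710 genes averaging 20 CPM or more over the libraries, 6.51% were at least 1.5-fold lower in KO cells and 1.98% at least 1.5-fold higher. The same 2 members passed in the shallower barcodes, where 5.57% of 5731 genes were lower and 1.78% higher. H2AX, at a mean below 20 CPM, is outside that background but was at least 1.5-fold different in neither depth range. The median log2 ratio (KO over WT) of the members was -0.26 in cells and -0.25 in the shallower barcodes, and that of all genes was -0.12 in both.

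**Figure D1:**
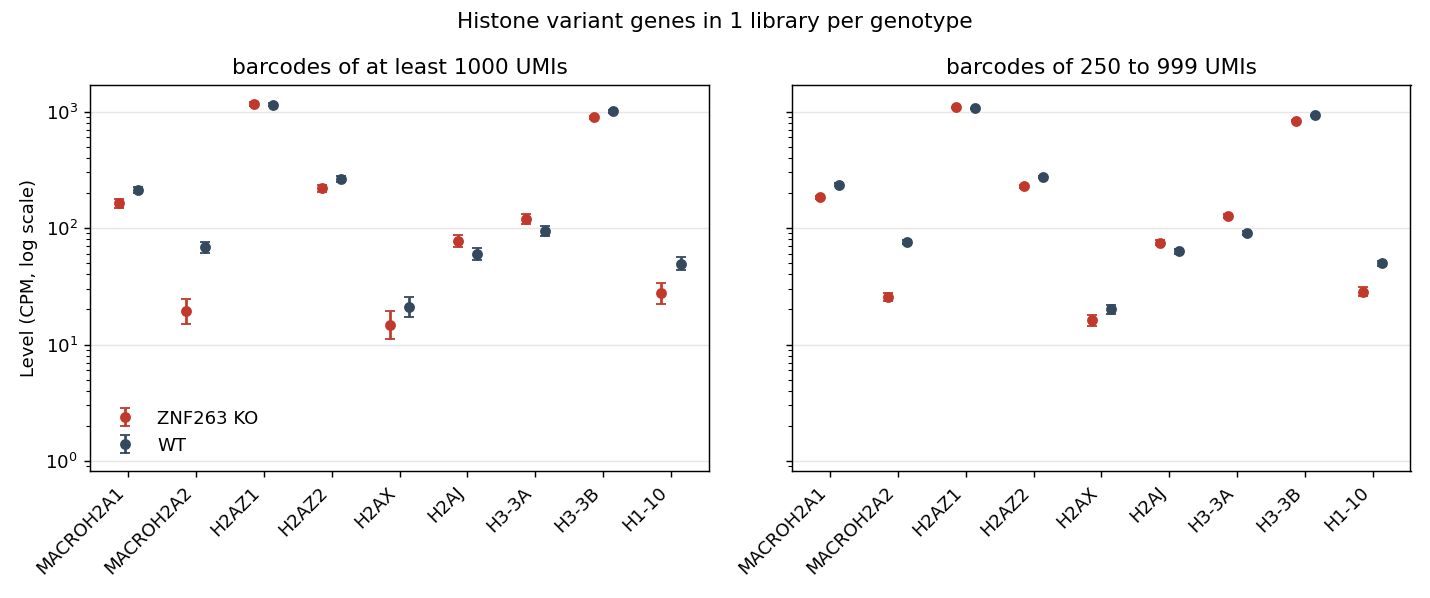
Level of each member in CPM on a log axis, in ZNF263 KO (red) and WT (dark blue), for barcodes of at least 1000 UMIs (left) and of 250 to under 1000 UMIs (right); points are sums over 1 library and bars are exact Poisson 95% intervals for counting error. The points lie far apart for MACROH2A2 (19.3 CPM in KO and 68.6 CPM in WT, left panel) and nearly level for H2AZ1 (1160 and 1146 CPM).

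The members differed widely in the number of captured molecules, which the UMIs count without regard to gene length. H2AZ1 was the most abundant at 1160 CPM in KO cells and 1146 CPM in WT cells, followed in both by H3-3B, H2AZ2, MACROH2A1 and H3-3A. H2AX was the lowest in both, at 14.9 CPM in KO cells and 21.1 CPM in WT cells. MACROH2A2 was the member whose place differed most, with H2AJ and H1-10 each 1 place higher in KO cells than in WT cells. In KO cells it came eighth, and its interval (15.0 to 24.5 CPM) overlapped those of H1-10 above it and H2AX below it. In WT cells it came sixth at 68.6 CPM, overlapping H2AJ at 60.2 CPM, which in turn overlapped H1-10 at 49.5 CPM.

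MACROH2A2 and MACROH2A1 encode the 2 macroH2A proteins of the human genome, and both were lower in KO cells, MACROH2A2 by far the more. MACROH2A2 (chromosome 10, 70052846 to 70112282, plus strand) had 69 UMIs in KO cells and 319 UMIs in WT cells. Its log2 ratio was -1.83 (exact 95% interval for counting error -2.22 to -1.45), or 3.55-fold lower, and 10 of the 5710 genes had a lower ratio. In the shallower barcodes it had 541 UMIs in KO and 1806 UMIs in WT, 25.7 and 75.9 CPM, a log2 ratio of -1.57 (-1.71 to -1.43).

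MACROH2A1 (chromosome 5, 135334381 to 135399887, minus strand), the more widely expressed macroH2A gene, had 581 UMIs in KO cells and 985 UMIs in WT cells. Its level was 163 CPM in KO and 212 CPM in WT, a log2 ratio of -0.38 (-0.53 to -0.23), within the central 95% of all genes (-0.78 to 0.54). The shallower barcodes gave -0.36. The counts are per gene and do not separate the known splice forms of MACROH2A1.

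The share of MACROH2A2 in the UMIs of both macroH2A genes needs no scaling between libraries. It was 10.6% in KO cells (69 of 650 UMIs, Clopper-Pearson 95% interval 8.35 to 13.2%) and 24.5% in WT cells (319 of 1304 UMIs, 22.2 to 26.9%). The shallower barcodes gave 12.3% in KO and 24.4% in WT. In each of 5 depth ranges from 100 to under 250 UMIs up to at least 2000 UMIs, the share was 9.57 to 12.8% in KO and 22.0 to 25.0% in WT. The macroH2A transcripts of KO cells thus came mostly from MACROH2A1, as in WT cells, but with a smaller share from MACROH2A2.

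**Figure D2:**
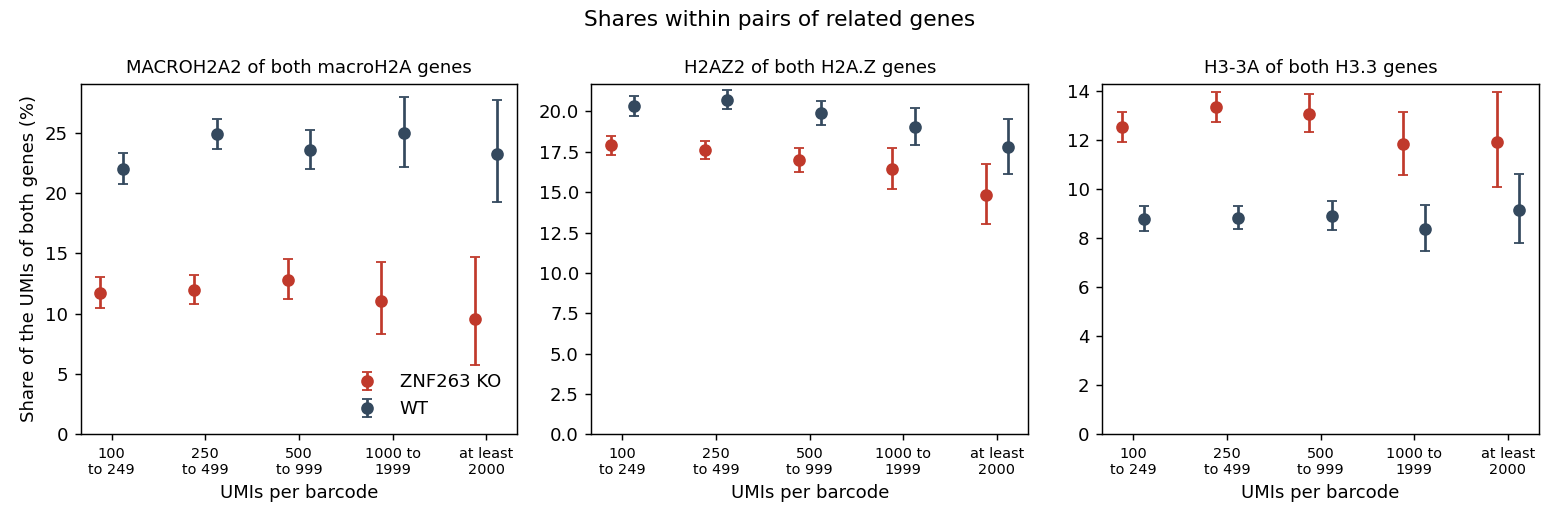
Share (%) of MACROH2A2, H2AZ2 and H3-3A in the UMIs of each gene and its partner (MACROH2A1, H2AZ1 and H3-3B), by UMIs per barcode, in ZNF263 KO (red) and WT (dark blue); bars are exact 95% intervals for counting error. The KO share lies below the WT share in all 5 depth ranges for MACROH2A2 and H2AZ2, and above it for H3-3A, with overlapping bars at 2000 UMIs and more for H2AZ2 and H3-3A.

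MACROH2A2 was sparse within cells. With every cell thinned to 1000 UMIs, 49 of 2286 KO cells (2.14%, 1.59 to 2.82%) and 194 of 2935 WT cells (6.61%, 5.74 to 7.57%) held a MACROH2A2 UMI, and no cell held more than 2 UMIs. Unthinned shares were 2.84% in KO cells and 9.81% in WT cells. A pool of the barcodes of 10 to 99 UMIs, too shallow to be called cells, would give 2.63% in KO and 7.28% in WT at the same depth. The shares of cells were at or below those of the pool, so cells expressing the gene cannot be told apart from background UMIs by this comparison. The pool differed between the libraries much as the cells did. For MACROH2A1 the thinned shares were 15.4% in KO cells and 19.1% in WT cells, also below the 16.3% in KO and 21.2% in WT that the pool would give.

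The difference in MACROH2A2 was present in every depth range and in every class of cells that had UMIs to compare. Over the 5 depth ranges it was between 2.83-fold and 3.85-fold lower in KO, and in barcodes of 10 to 99 UMIs 2.83-fold lower. Cells were also grouped by their UMIs of G2/M genes and of S phase genes per 1000 UMIs, by mitochondrial share and by UMIs of neuroectoderm genes after thinning to 1000 UMIs. The log2 ratio ran from -2.41 in the class with most G2/M UMIs to -1.27 in the class with most S phase UMIs, and every interval among these classes lay below 0. The class of 3 or more CRABP1 UMIs after the same thinning held 12 KO and 97 WT cells, and its KO cells had 0 MACROH2A2 UMIs, too few cells to compare.

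**Figure D3:**
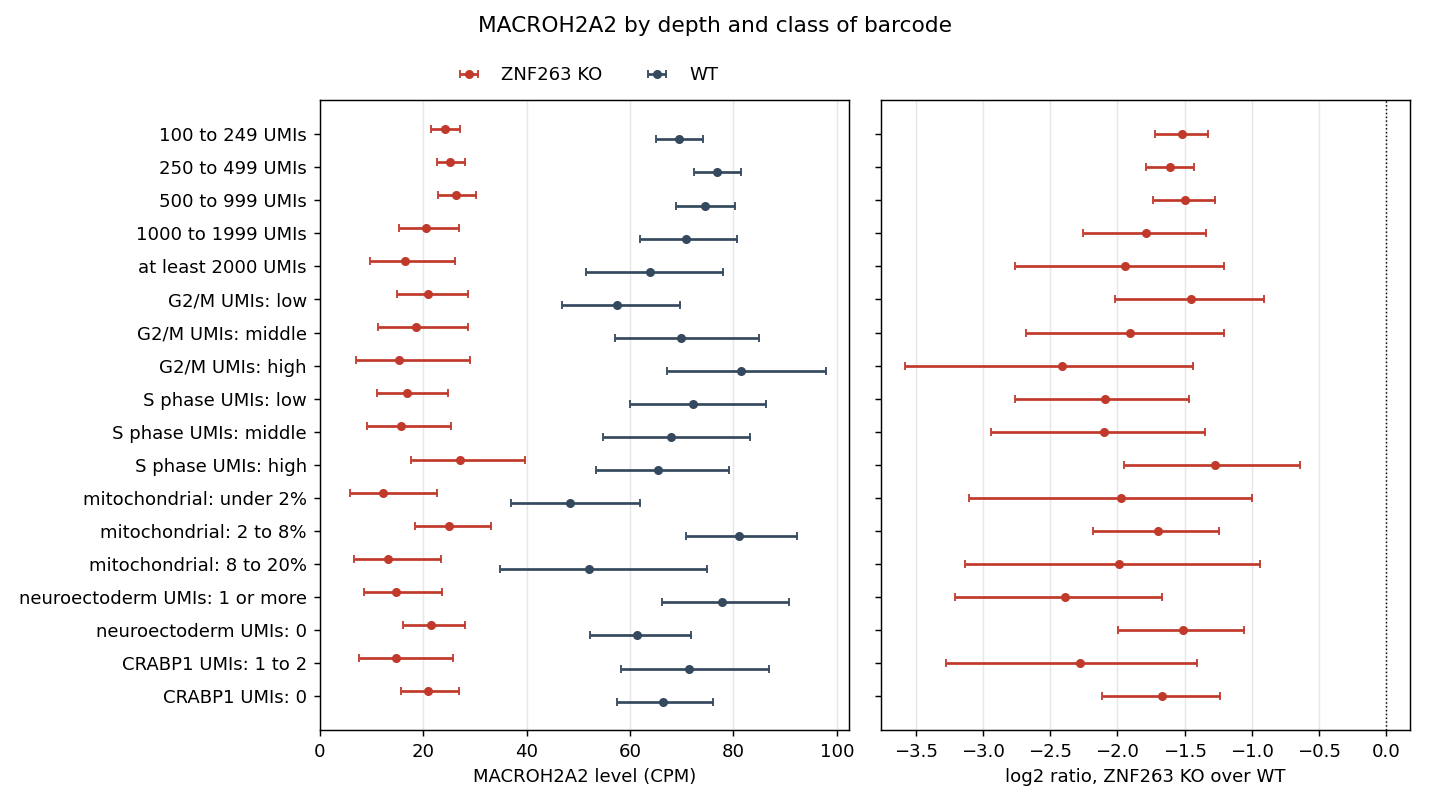
MACROH2A2 level in CPM (left; ZNF263 KO red, WT dark blue) and log2 ratio of KO over WT (right), in 5 ranges of UMIs per barcode and in classes of cells of at least 1000 UMIs by G2/M, S phase, mitochondrial, neuroectoderm and CRABP1 UMIs; bars are exact 95% intervals for counting error. The KO level is below the WT level in each row, and the ratio is between -2.41 and -1.27.

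Markers of several cell states differed between the libraries as well, and neuroectoderm markers were lower along with MACROH2A2. Of 15 such genes, 11 reached a mean of 5 CPM and 7 of them were at least 1.5-fold lower in KO cells, none higher, with a median log2 ratio of -2.30 (-0.14 over the 10129 genes at that level, of which 13.0% were at least 1.5-fold lower and 3.94% higher). Their summed level was 401 CPM in KO cells and 644 CPM in WT cells, and none of the 15 was at 0 in either. PAX6, a factor that marks neuroectoderm, had 23 UMIs in KO cells and 68 UMIs in WT cells. ZIC2, which pluripotent cells also express, was not lower once scaled. It had 545 UMIs in KO cells and 691 UMIs in WT cells, a log2 ratio of 0.04. In the 1281 KO and 1228 WT cells with no UMI of any of the 15 genes and under 3 UMIs of CRABP1, a retinoic acid binding protein gene, MACROH2A2 was 2.90-fold lower in KO, with 36 UMIs in KO and 100 UMIs in WT (log2 -1.54, -2.13 to -0.98).

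Other state markers also differed in KO cells. Of 7 primitive streak and mesoderm genes, 2 averaged 5 CPM or more and both were at least 1.5-fold lower, EOMES with 16 UMIs in KO cells and 73 UMIs in WT cells and MIXL1 with 25 and 85 UMIs in KO and WT cells, and the list summed to 12.6 CPM in KO and 38.3 CPM in WT. Of the 15 pluripotency genes, 4 were at least 1.5-fold higher and none lower, with a median log2 ratio of 0.03. They were TDGF1, a Nodal co-receptor gene, at 1.76-fold, the DNA methyltransferase gene DNMT3B at 1.58-fold, POU5F1 at 1.54-fold and PRDM14 at 1.52-fold, and the list summed to 5773 CPM in KO and 5073 CPM in WT. Of 5 endoderm genes only AFP averaged 5 CPM or more, with 53 UMIs in KO cells and 31 UMIs in WT cells. In the shallower barcodes, 4 of the 5 had UMIs in both libraries, all but AFP below 5 CPM. Of these 4, 2 were at least 1.5-fold lower and 1 higher. The part of these states in the MACROH2A2 difference was not tested.

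Within WT cells, MACROH2A2 stood at 77.7 CPM in cells with a neuroectoderm UMI and 61.4 CPM in cells with none, a ratio of 1.27 (1.01 to 1.59). Within KO cells it stood at 14.8 CPM in cells with a neuroectoderm UMI and 21.5 CPM in cells with none, a ratio of 0.688 whose interval (0.373 to 1.21) includes 1. Likewise, the class with most G2/M UMIs against the class with fewest gave 15.3 against 21.0 CPM in KO cells (ratio 0.727, 0.310 to 1.52) and 81.4 against 57.5 CPM in WT cells (ratio 1.42, 1.08 to 1.87). The libraries also differed in G2/M makeup, with 386 KO and 894 WT cells in the class with most such UMIs. With both libraries weighted to the same G2/M makeup, the MACROH2A2 log2 ratio was -1.83, as without the weights.

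The genes around MACROH2A2 did not share its difference in size. The 5 nearest measured genes on each side, spanning chromosome 10 from 68988803 to 70428618, had a median log2 ratio of -0.10 and ranged from -0.84 for LRRC20, a leucine-rich repeat gene, to 0.31 for FAM241B. AIFM2, whose annotation overlaps the end of MACROH2A2 by 12 bases on the opposite strand, had 14 UMIs in KO cells and 20 UMIs in WT cells (log2 -0.13, -1.23 to 0.93). In the shallower barcodes AIFM2 had 129 UMIs in KO and 105 UMIs in WT (log2 0.47, 0.09 to 0.86).

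The genes most like MACROH2A2 across 8 profiles (2 libraries in 4 depth ranges each) were KAT6A, a histone acetyltransferase, ZNF521, a zinc finger gene, EPHA4, an ephrin receptor, DYNC1I2, a dynein chain, and CDH2, the cadherin of neural cells, with Pearson r of 0.997 to 0.998. The 8 profiles share 2 libraries, so the measure mainly follows the difference between them, and 513 of 5685 genes had r above 0.95. KAT6A stood at 23.8 CPM in KO cells and 56.6 CPM in WT cells, and EPHA4 at 15.7 and 52.5 CPM in KO and WT cells.

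The H2A.Z genes encode proteins that differ at few residues and replace H2A at promoters. H2AZ1 (chromosome 4, 99948088 to 99950275, minus strand) had 4138 UMIs in KO cells and 5328 UMIs in WT cells. Its log2 ratio was 0.02 (-0.04 to 0.08) in cells and 0.04 in the shallower barcodes, the narrowest intervals of the set. Scaled so that the median ratio of all genes is 0, its ratio in cells was 0.13. H2AZ2 (chromosome 7, 44826889 to 44848126, minus strand) had 785 UMIs in KO cells and 1221 UMIs in WT cells, 220 and 263 CPM, a log2 ratio of -0.26 (-0.39 to -0.12), and -0.25 in the shallower barcodes.

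The H2AZ2 share of H2A.Z UMIs was 15.9% in KO cells (14.9 to 17.0%) and 18.6% in WT cells (17.7 to 19.6%). In the shallower barcodes it was 17.4% in KO and 20.4% in WT. The KO share was the lower in each of the 5 depth ranges, by a few percentage points, and from 500 UMIs upward the share was smaller in each deeper range of both libraries. H2A.Z pseudogenes held few UMIs, at most 13 in KO cells and 20 in WT cells for any of them.

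Of 34 genes of the SRCAP, TIP60/EP400 and INO80 complexes and the H2A.Z chaperone ANP32E, 32 reached a mean of 5 CPM, with a median log2 ratio of -0.15. Of these, 1 was at least 1.5-fold lower and none higher, where 13.0% of all genes at that level were lower and 3.94% higher. It was TRRAP, the large scaffold of acetyltransferase complexes, with 25 UMIs in KO cells and 73 UMIs in WT cells (log2 -1.16, -1.88 to -0.49). The ATPase gene SRCAP had 84 UMIs in KO cells and 89 UMIs in WT cells. All genes together had 3567881 UMIs in KO cells and 4650391 UMIs in WT cells, so SRCAP was the higher in KO by CPM. EP400 had 125 and 193 UMIs in KO and WT cells and was lower in KO by CPM.

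H2AX and H2AJ are single-copy H2A variants. H2AX (chromosome 11, 119093874 to 119095465, minus strand), the substrate of the DNA damage kinases, had 53 UMIs in KO cells and 98 UMIs in WT cells, a log2 ratio of -0.50 (-1.01 to -0.01), and -0.30 (-0.51 to -0.10) in the shallower barcodes. It lies wholly within the RefSeq span of DPAGT1 on the same strand, over 1592 bases, and its counts are uncertain for that reason. DPAGT1 had 56 UMIs in KO cells and 47 UMIs in WT cells. H2AX was the member with the largest G2/M contrast in WT cells, at 30.0 CPM in the class with most G2/M UMIs and 18.4 CPM in the class with fewest (ratio 1.63, 1.01 to 2.65). In KO cells the same classes had 17.0 and 16.3 CPM (ratio 1.04, 0.456 to 2.18). The kinases and readers of H2AX numbered 9 measured genes with a median log2 ratio of -0.27. MCPH1, a reader of phosphorylated H2AX, was at least 1.5-fold lower, with 89 UMIs in KO cells and 180 UMIs in WT cells, and none was higher. That 1 of 9 is near the 13.0% of all genes, and in the shallower barcodes MCPH1 was 1.40-fold lower and 0 of the 9 passed. The kinase genes were short of that limit, PRKDC at -0.43 and ATR at -0.49 (log2).

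H2AJ (chromosome 12, 14774405 to 14778002, plus strand), a variant known for building up in senescent human fibroblasts, was among the 3 members with a ratio above 0. It had 278 UMIs in KO cells and 280 UMIs in WT cells, 77.9 and 60.2 CPM, a log2 ratio of 0.37 (0.13 to 0.62). The shallower barcodes gave 74.9 CPM in KO and 63.3 CPM in WT, a log2 ratio of 0.24 (0.14 to 0.34). In cells of at least 2000 UMIs the ratio was 0.12. Thinned to 1000 UMIs, 7.96% of KO cells and 5.66% of WT cells held an H2AJ UMI, where the pool of 10 to 99 UMIs would give 7.44% in KO and 5.95% in WT.

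H3-3A and H3-3B encode the same H3.3 protein, yet their counts differed in opposite directions. H3-3A (chromosome 1, 226061831 to 226072019, plus strand) had 427 UMIs in KO cells and 441 UMIs in WT cells, 120 and 94.8 CPM, a log2 ratio of 0.34 (0.14 to 0.53). The shallower barcodes gave 127 CPM in KO and 90.3 CPM in WT, a log2 ratio of 0.50 (0.41 to 0.58). H3-3B (chromosome 17, 75776434 to 75779779, minus strand), which held most H3.3 UMIs, had 3175 UMIs in KO cells and 4672 UMIs in WT cells, 890 and 1005 CPM, a log2 ratio of -0.17 (-0.24 to -0.11). Its shallower value was -0.15. H3-3A made up 11.9% of H3.3 UMIs in KO cells and 8.63% in WT cells.

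The H3-3A difference was not seen in the sum of H3-3A and its pseudogene, but most UMIs of that sum were assigned to the pseudogene. H3P6 was assigned 1237 UMIs in KO cells and 1942 UMIs in WT cells, more than H3-3A itself, at 347 and 418 CPM in KO and WT cells (log2 -0.27, -0.37 to -0.16). H3-3A and H3P6 together stood at 466 CPM in KO cells and 512 CPM in WT cells, a log2 ratio of -0.14 (-0.23 to -0.04), close to the median of all genes. In the shallower barcodes the sum gave -0.12 (-0.16 to -0.08). Of the summed UMIs in cells, H3P6 held 1237 of 1664 in KO and 1942 of 2383 in WT, so the sum mostly followed H3P6. It therefore cannot show whether the H3-3A difference holds, and the H3-3A value by itself stays uncertain. Scaled so that the median ratio of all genes is 0, H3-3A by itself was 1.53-fold higher in KO in the shallower barcodes, past the 1.5-fold limit that it otherwise missed.

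**Figure D4:**
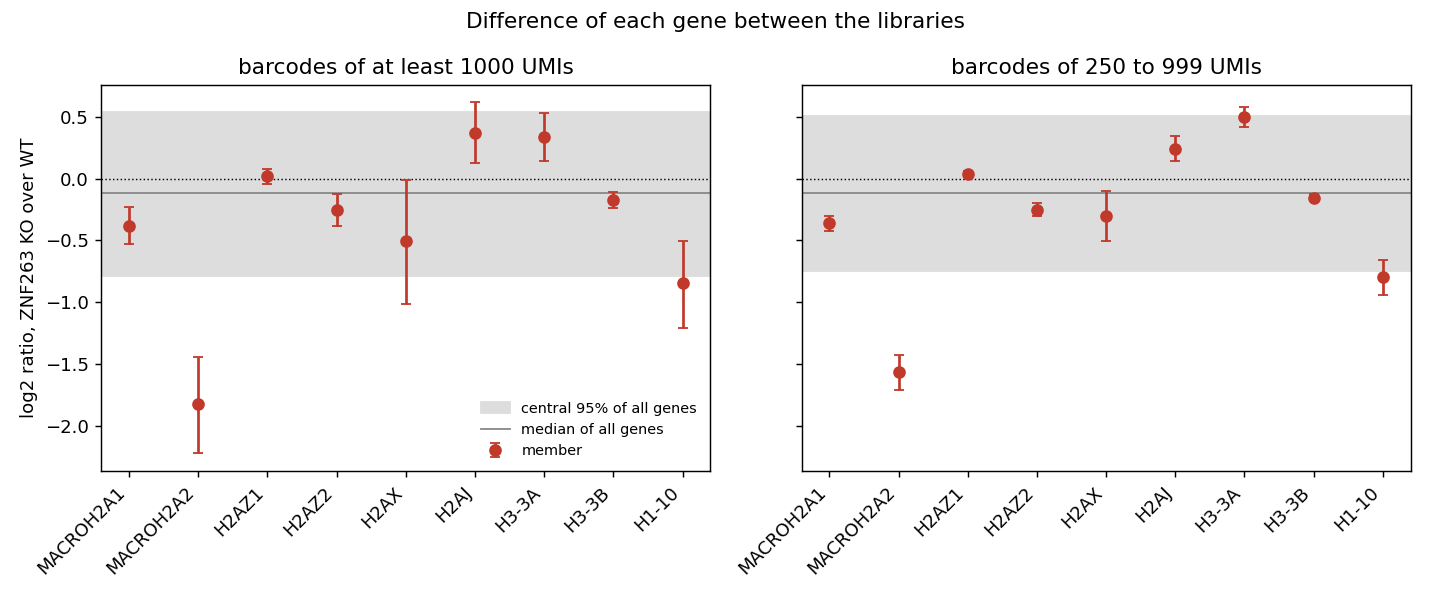
Log2 ratio of ZNF263 KO over WT for each member, for barcodes of at least 1000 UMIs (left) and of 250 to under 1000 UMIs (right); bars are exact 95% intervals for counting error, the grey band is the central 95% of all genes averaging 20 CPM or more and the grey line their median (-0.12). MACROH2A2 (-1.83 and -1.57) and H1-10 (-0.85 and -0.80) lie below the band, and the other 7 members inside it.

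The H3.3 chaperones HIRA with its partners UBN1, UBN2, CABIN1 and ASF1A, and DAXX with ATRX, were all measured. None of the 7 was at least 1.5-fold lower or higher in KO cells, and their median log2 ratio was -0.13, or -0.40 over the 5 of them that averaged 20 CPM or more. In the shallower barcodes CABIN1, a HIRA partner, reached 1.55-fold lower, where 10.1% of 10148 genes averaging 5 CPM or more were at least 1.5-fold lower and 2.79% higher. ATRX, the remodeller that works with DAXX, was the lowest in cells, at 118 CPM in KO and 164 CPM in WT (log2 -0.48, -0.65 to -0.30). HIRA had 67 UMIs in KO cells and 86 UMIs in WT cells, and DAXX had 68 and 88 UMIs in KO and WT cells. By CPM both were nearly level between the libraries, HIRA at a log2 ratio of 0.02. H3-3B had a higher CPM in cells with a low mitochondrial share in both libraries. Mitochondrial UMIs are part of the total that CPM is divided by, so other genes read higher by scale alone where that share is low. The part of this scaling in the contrast was not tested. Cells with under 2% mitochondrial UMIs against those with 8 to 20% had 991 against 850 CPM in KO (ratio 1.17, 1.05 to 1.29) and 1156 against 916 CPM in WT (ratio 1.26, 1.14 to 1.40). It was the only such contrast, among 54 in each library, whose interval excluded 1 in both.

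H1-10 (chromosome 3, 129314771 to 129316286, minus strand), the replication-independent linker histone H1x, was the other member at least 1.5-fold lower. It had 98 UMIs in KO cells and 230 UMIs in WT cells, 27.5 and 49.5 CPM, a log2 ratio of -0.85 (-1.20 to -0.50), or 1.80-fold lower. The shallower barcodes had 601 UMIs in KO and 1180 UMIs in WT, a log2 ratio of -0.80 (-0.94 to -0.66), or 1.74-fold lower. In cells of at least 2000 UMIs, with 34 UMIs in KO and 65 UMIs in WT, it was 1.41-fold lower with an interval that includes 0 on the log2 scale (-1.14 to 0.13), and thinned to 1000 UMIs it was 1.48-fold lower. Its antisense neighbour H1-10-AS1, which overlaps it by 16 bases, had 27 UMIs in KO cells and 53 UMIs in WT cells. The log2 ratio of H1-10-AS1 was -0.59 (-1.32 to 0.10) in cells and -0.14 (-0.48 to 0.19) in the shallower barcodes, and both intervals include 0.

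H1-2, a replication-coupled linker histone gene with a detected polyadenylated fraction, had 67 UMIs in KO cells and 73 UMIs in WT cells (log2 0.26, -0.24 to 0.76). In the shallower barcodes its log2 ratio was -0.02 (-0.25 to 0.21).

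CENPA, the centromeric H3 variant, which peaks in G2 phase and is also in the G2/M list, was at least 1.5-fold lower in KO cells. It had 33 UMIs in KO cells and 78 UMIs in WT cells (log2 -0.86, -1.49 to -0.25). The G2/M list as a whole stood at 6636 CPM in KO cells and 7992 CPM in WT cells, with 9 of 54 genes at least 1.5-fold lower and none higher, a count near the 13.0% of all genes at that level, and its part in the CENPA value was not tested. With KO and WT weighted to the same G2/M makeup, 2 members were at least 1.5-fold lower, as without the weights.

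The replication-coupled histone genes, seen here through the small part of their mRNA that carries a poly(A) tail, numbered 59 listed genes. Of these, 8 reached a mean of 5 CPM, with a median log2 ratio of -0.04. None was at least 1.5-fold lower and 1 was higher, H2AC17, where 13.0% of all genes at that level were lower and 3.94% higher. The list holds too few genes to set its counts apart from those shares. In the shallower barcodes the log2 ratio of H2AC17 was 0.32, short of 1.5-fold, at a mean below 5 CPM. H4C3, by far the most abundant, stood at 578 CPM in KO cells and 583 CPM in WT cells. Of 7 genes for histone mRNA processing, CASP8AP2, which is needed for histone gene transcription in S phase, was at least 1.5-fold lower, with 140 UMIs in KO cells and 293 UMIs in WT cells. That 1 of 7 is near the 13.0% of all genes, and in the shallower barcodes CASP8AP2 was 1.43-fold lower and 0 of the 7 passed. SLBP, which binds the histone mRNA stem loop, had 149 and 252 UMIs in KO and WT cells (log2 -0.38, -0.68 to -0.08). Of 21 other measured histone chaperones, none passed 1.5-fold in either direction, and the median log2 ratio was -0.13.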

How the data were processed

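For 1 ZNF263 KO and 1 WT library the authors deposited whole-number UMI counts of genes by barcode, not normalized. Per the submitters' processing notes, tools included STAR 2.7.10a, UMI-tools 1.1.2 and Subread with featureCounts 2.0.1, on hg38. Annotation, strand setting and barcode filters: not given in the sources used here. The tables held 54559376 KO UMIs over 841049 barcodes and 60578040 WT UMIs over 842407 barcodes; 834126 barcode sequences were in both. The 15 entries beyond the KO table's stated size were used.

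UMIs were summed over barcodes and divided by their total to give CPM. With 1 library per genotype no test was made: intervals are exact Poisson (levels), conditional binomial (ratios) or Clopper-Pearson (shares) 95% intervals and cover counting error only, since PCR copies and cells of 1 library are not independent samples. Doublets were not removed. Called means at least 1.5-fold. Cells were classed by G2/M UMIs (at most 6, over 9) and S phase UMIs (at most 4, over 6) per 1000 UMIs. Named genes were the members, their neighbours and likenesses, and up to 4 genes of each list with the largest ratios among those averaging 10 CPM or more; others were named after their values were seen. Some results for other histone variant genes are not reported here. Members and lists were chosen with earlier results of these data known. Python packages were NumPy 2.4.6, SciPy 1.17.1, pandas 2.3.3 and Matplotlib 3.10.9.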

Additional observations from a re-analysis of the deposited data

How the results depend on the processing

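Each value rests on 1 library per genotype, so the spread between cultures or lines is unknown, and a difference between libraries cannot be told apart from one between genotypes. Depth limits the members with few UMIs, such as H2AX (53 UMIs in KO cells and 98 in WT cells). No paired analysis was possible because each genotype has 1 library and no test was made.

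Over 12 alternatives the MACROH2A2 log2 ratio in cells ran from -1.94 to -1.54, and over 6 in the shallower barcodes from -1.60 to -1.45, always past 1.5-fold. The count of members at least 1.5-fold lower was 1 with a minimum of 2000 UMIs and 1 with cells thinned to 1000 UMIs, since H1-10 dropped out, against 2 otherwise except 3 in cells without neuroectoderm UMIs, where H2AX joined. The share of KO cells with a MACROH2A2 UMI was 2.84% unthinned and 1.09% thinned to 500 UMIs, and that of WT cells 9.81% and 3.37%. Scaling to the median ratio of all genes moved every log2 ratio up by 0.12 (the all-gene median being -0.12). It left H3-3B at -0.06 and -0.03 in the 2 depth ranges and turned the direction of no member. The sum of H3-3A and H3P6, chosen after the data were seen and mostly made up of H3P6 UMIs, was at -0.14 in cells. In the shallower barcodes it was at -0.12.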

Other observations

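Within cells, 108 contrasts between classes were computed (9 members, 6 pairs of classes, both libraries), and 11 had a counting interval that excluded 1, of which 3 were in KO and 8 in WT. H2AZ2 was higher in KO cells with most G2/M UMIs, at 266 CPM against 200 CPM in those with fewest (ratio 1.33, with its interval above 1). H2AZ1 was the reverse in WT cells, at 1068 CPM in the class with most G2/M UMIs and 1200 CPM in the class with fewest (ratio 0.890, 0.832 to 0.951). No test of the difference between libraries was made for either.

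TATAAA, the TATA box letters searched on both strands, occurred in 4049 of all 35116 promoter windows. Among the members it stood at -31 in H1-10, H2AZ1 and H2AX and at -29 in H3-3B, and it was in no window of the other 5. CCAAT, in 34.6% of all windows on either strand, was found at 4 places each in the windows of H2AZ2, H2AX and H3-3B. It was absent from the windows of MACROH2A2 and H1-10, and also from a window of MACROH2A1 and a window of H3-3A.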
